A study of Chlamydomonas reinhardtii with 12 samples.

Results

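Late dark anoxia was compared with early dark anoxia in the single-celled green alga Chlamydomonas reinhardtii. The 8 dark-anoxic samples of the 12 in the series were used, 4 taken after 6 h and 4 after 0.5 h, so that light was absent on both sides. Each time held 1 sample of each of 4 strains. These were CC-124 (the wild type), crr1 (a mutant of the transcription factor CRR1), crr1:CRR1 (that mutant rescued with CRR1) and crr1dCys (a rescue with the form of that name). Per the labels' protocols, cells had grown in the light in TAP medium, which contains acetate, and aliquots were then sealed in nearly full glass bottles and stirred in a dark room. The 4 light-oxic samples, aliquots of the same cultures returned to growth conditions, entered no test. They serve as a description of culture in the light, with no time given for them, and not as a measured start of the dark. Alleles, clones and the promoters of the rescue constructs were not given in the sources used here, and the labels list 1 sample per strain and time. The strains were therefore the paired replicates, 4 against 4. The p-values weigh the mean response against its spread over strains, with variances moderated over models. Of the 4, crr1 and both rescued strains share the crr1 background, so the replicates are not independent of each other in background.

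This alga is known to respire oxygen away soon after it is sealed in the dark, and then to live on fermentation of stored starch with release of organic acids, ethanol, carbon dioxide and hydrogen. Photosynthesis gives no energy in the dark, and several steps of pigment, sterol and fatty acid synthesis need oxygen. CRR1 is known as a regulator of the response to copper deficiency, with a role in the response to low oxygen as well, and crr1dCys is known as a form that lacks the cysteine-rich end. Early and late dark anoxia differ in how long the cells have fermented, and equally in how long they were dark and sealed. The series has no dark sample kept in air, so these cannot be told apart. The comparison asked which transcripts moved between these stages.

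Transcript levels were given as RPKM, reads scaled by the length of the gene model and the depth of the library, for 17301 gene models. The 12 columns used, with 1 or 2 columns for a sample, rested on 12000629 to 15850357 reads. A further dark column, marked TS4, of crr1:CRR1 at 6 h differed widely from its TS1 partner and was left out, and values with it are given where they bear on a result. A model was tested where its RPKM averaged at least 1 across the 8 samples, which left 14312. Neither the table nor the reference gene list pairs a model with a gene name or product, so models appear by their identifier and no function is given. The level of the CRR1 transcript was not analysed here for the same reason, and the strain labels were not checked through it.

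Between 0.5 h and 6 h of dark anoxia, 502 gene models rose and 689 fell at a limma adjusted p below 0.05 and a log2 fold change of RPKM + 1 of at least 1 in size. These are 3.51% and 4.81% of the models tested, and 8.32% together. 67 of the risers and 49 of the fallers moved by 2 log2 units or more. The move had the same direction in all 4 strains for 488 of the risers and 683 of the fallers, against 51.3% of all models tested. Agreement between strains is what the paired test asks for, so these shares are largely built into the calls. At 6 h the 4 values lay wholly above the 4 values at 0.5 h in 1408 models (9.84% of those tested) and wholly below in 1753 (12.2%), and 385 of the risers and 554 of the fallers were among these. 5023 models (35.1%) had an adjusted p below 0.05 whatever the size, so most shifts that passed the test were smaller than 1 log2 unit. The median log2 fold change of all models was -0.04, with a 5th percentile of -0.99 and a 95th percentile of 0.87. Columns of the series marked TS1, which hold no CC-124, gave 451 risers and 754 fallers alone. Columns marked TS2, which hold CC-124 and crr1dCys at both times, gave 309 and 477 from 2 strains.

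**Figure D1:**
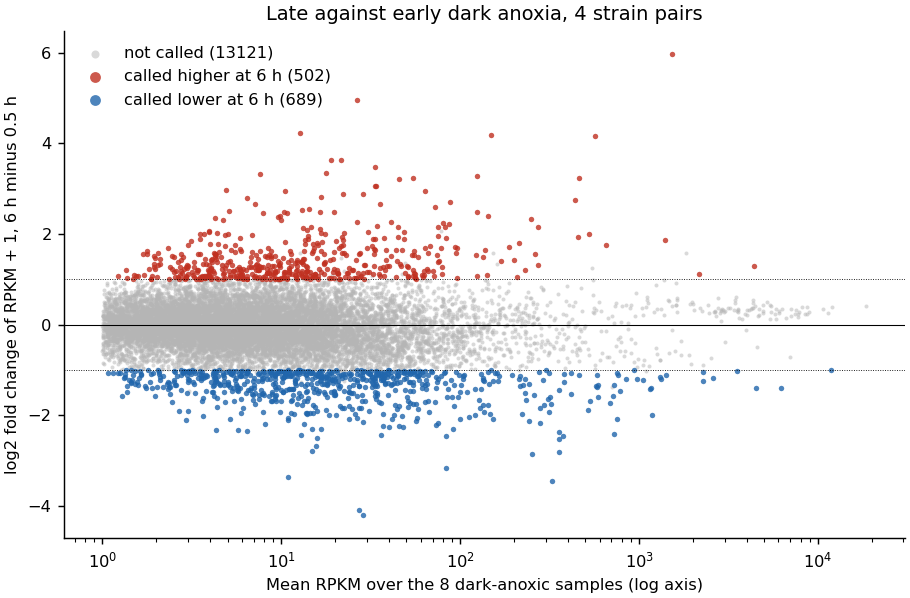
Log2 fold change of RPKM + 1 between 6 h and 0.5 h (vertical axis) against the mean RPKM of the 8 dark-anoxic samples (horizontal log axis), 1 point per gene model, with the 502 called higher in red, the 689 called lower in blue and dotted lines at 1 log2 unit. Rises reach larger sizes than falls, with the largest rise at 5.96 and the largest fall at -4.19.

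Cre17.g700950.t1.1 rose the most. In the order CC-124, crr1dCys, crr1:CRR1 and crr1, its RPKM at 0.5 h were 11.2, 0.269, 0.460 and 0. At 6 h they were 10497, 23.9, 1609 and 0.0642. In reads, the CC-124 library went from 207 to 187246, and both crr1 columns at 6 h together held 2. The 6 h value was above the 0.5 h value in each strain, but the 6 h value of crr1 lay below the 0.5 h values of all other strains. Over strains the mean went from 2.99 ± 5.49 to 3032 ± 5033 RPKM (SD, n = 4). The log2 fold change was 5.96 ± 1.44 (SE), with an adjusted p of 0.0132 by limma. The response was 9.75 log2 units in CC-124, 10.14 in crr1:CRR1, 3.88 in crr1dCys and 0.09 in crr1. Without crr1:CRR1 the limma adjusted p was 0.0507 with a log2 fold change of 4.57, and without pairing by strain it was 0.141. The left-out TS4 column of crr1:CRR1 held 62.4 RPKM at 6 h for this model. The light-oxic level of CC-124 was 31.9 RPKM, above its 0.5 h level, and lay between 0.381 and 1.59 RPKM in the other strains.

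Cre16.g661200.t1.1 had the next largest rise, and unlike the first it was present at 6 h in all 4 strains. It was at 0.0743, 0.804, 0.586 and 1.01 RPKM at 0.5 h in CC-124, crr1dCys, crr1:CRR1 and crr1. At 6 h the values in the same order were 64.5, 42.9, 24.5 and 76.7 RPKM. The left-out 6 h column of crr1:CRR1 was at 6.46 RPKM, below its TS1 partner and still above every 0.5 h value. Every 6 h value used lay far above every 0.5 h value, and crr1 had the highest level at both times. The mean went from 0.620 ± 0.404 to 52.2 ± 23.1 RPKM (SD, n = 4). This was 4.95 ± 0.27 log2 units (SE), with an adjusted p of 6.99e-05 by limma. In the light it was listed at 0 in CC-124, crr1dCys and crr1, with 3 reads in 1 of the 2 crr1:CRR1 columns. At 0.5 h the library of CC-124 held 4 reads of it, and those of the other strains held between 54 and 72 over their columns.

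1 further riser was singled out after its values were seen, because it was the single model with at most 3 reads over all 0.5 h samples and at least 10 in each 6 h sample. No model showed the opposite, by the same limits, with 0 found. Cre02.g087073.t1.1 had no read at 0.5 h in CC-124, crr1dCys and crr1:CRR1, and 3 in crr1. At 6 h it had 318 reads in CC-124 and 148 in crr1:CRR1, and 13 and 10 in crr1dCys and crr1. In the order of strains used above, the 6 h levels were 24.6, 0.495, 12.2 and 0.486 RPKM. In the columns used, the level was thus higher in both strains with full-length CRR1, as in Cre17.g700950.t1.1. The left-out TS4 column of crr1:CRR1 was at 0.308 RPKM instead, below the levels of crr1dCys and crr1. A difference between strains has no replicate here and was not tested. Over strains the log2 fold change was 2.30 ± 0.67 (SE), with an adjusted p of 0.0282 by limma. With 0 to 3 reads at 0.5 h its size rests on the pseudocount, and it was 1.14 with a pseudocount of 5, 4.46 with one of 0.1 and 6.58 by limma-voom on recovered reads. Without CC-124 it was 1.51. The left-out TS4 column of crr1:CRR1 held 4 reads, and with it included the limma adjusted p was 0.0637. Without crr1:CRR1 the limma adjusted p was 0.111, without the filter on low values it was 0.0551, and without pairing by strain it was 0.104.

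Cre12.g546600.t1.2 fell the most. Its 0.5 h levels in CC-124, crr1dCys, crr1:CRR1 and crr1 were 18.3, 131, 29.4 and 42.4 RPKM. At 6 h they were 2.95, 2.53, 0.583 and 0.436 RPKM in the same order. All 6 h values lay below all 0.5 h values, and CC-124, the lowest strain at 0.5 h, was the highest at 6 h. The mean went from 55.4 ± 51.6 to 1.63 ± 1.30 RPKM (SD, n = 4). On the log2 scale this was -4.19 ± 0.41 (SE), with an adjusted p of 0.000319 by limma. The response was smallest in CC-124, at -2.29 log2 units, and between -4.26 and -5.29 in the other strains. Light-oxic levels were higher still in each strain, with CC-124 lowest at 26.9 RPKM and crr1dCys highest at 304 RPKM.

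Cre02.g130700.t1.1 had the next largest fall. It was at 12.7, 79.7, 39.7 and 77.6 RPKM at 0.5 h and at 0.256, 3.55, 1.31 and 2.38 RPKM at 6 h in CC-124, crr1dCys, crr1:CRR1 and crr1. The order of the strains was the same at both times, and the groups did not overlap. The mean went from 52.4 ± 32.2 to 1.87 ± 1.41 RPKM (SD, n = 4). The change was -4.07 ± 0.18 log2 units (SE), with an adjusted p of 3.98e-05 by limma. Responses of the strains lay between -3.45 and -4.57 log2 units. In the light it was at 21.4 to 111 RPKM, above the 0.5 h level in every strain.

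**Figure D2:**
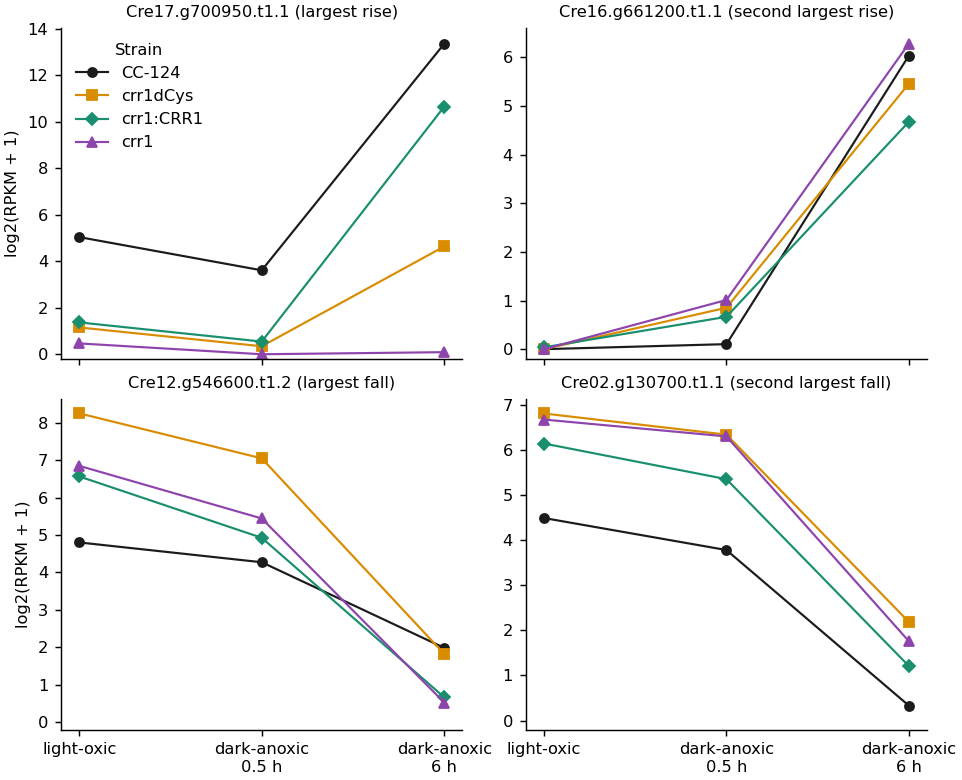
Levels as log2(RPKM + 1) (vertical axis, scaled separately in each panel) at the 3 stages (horizontal axis) for both largest rises and both largest falls, with 1 line per strain and each point the mean of the columns of 1 sample. Cre17.g700950.t1.1 in CC-124 ends at 10497 RPKM, and in crr1 at 0.0642, while the other 3 models move in 1 direction in all strains.

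The light-oxic samples, which took no part in the test, show where the dark levels stood against culture kept in the light. The median over the 502 risers was 3.09 log2 units in the light, 2.52 at 0.5 h and 3.96 at 6 h. The risers thus had a dip in the middle stage in the median, and this held in each strain, where the median step from light to 0.5 h was between -0.43 and -0.49 log2 units. Over the 689 fallers the medians were 4.30, 4.62 and 3.26 log2 units, and the median step from light to 0.5 h was between 0.22 and 0.38 in the strains. At 6 h the risers stood above the light by a median of 0.63 to 0.99 log2 units and the fallers below it by a median of -0.80 to -1.16, depending on the strain. Over all models tested the medians of the 3 stages were 2.88, 2.86 and 2.85. The models were picked for their difference from the 0.5 h samples, so a chance deviation at 0.5 h also moves the light level to the other side of it. This part of the dip was not tested.

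Single models took different courses. The mean light level of 260 risers lay between their dark levels, that of 142 lay below their 0.5 h level, and that of 100 lay above their 6 h level. These are 51.8%, 28.3% and 19.9% of the risers, against 27.5% between, 40.1% beyond the 0.5 h level and 32.4% beyond the 6 h level among all models tested. Models with dark levels far apart leave more room between them, so part of this difference is built into the selection. In 147 risers the 0.5 h level was at least 1 log2 unit below the light, so that the later rise went back toward it, and in 18 it was at least 1 unit above. Of the 689 fallers, 379 had a light level between the dark levels, 231 had one above the 0.5 h level and 79 had one below the 6 h level. These are 55.0%, 33.5% and 11.5% of the fallers. At 0.5 h, 143 fallers stood at least 1 log2 unit above the light, and 20 stood below it by that much. Among all models tested, 3.5% stood at least 1 log2 unit above the light at 0.5 h and 4.9% below. The light level was nearer to the 6 h than to the 0.5 h level in 40.2% of the risers and 32.7% of the fallers, against 45.5% of all models.

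**Figure D3:**
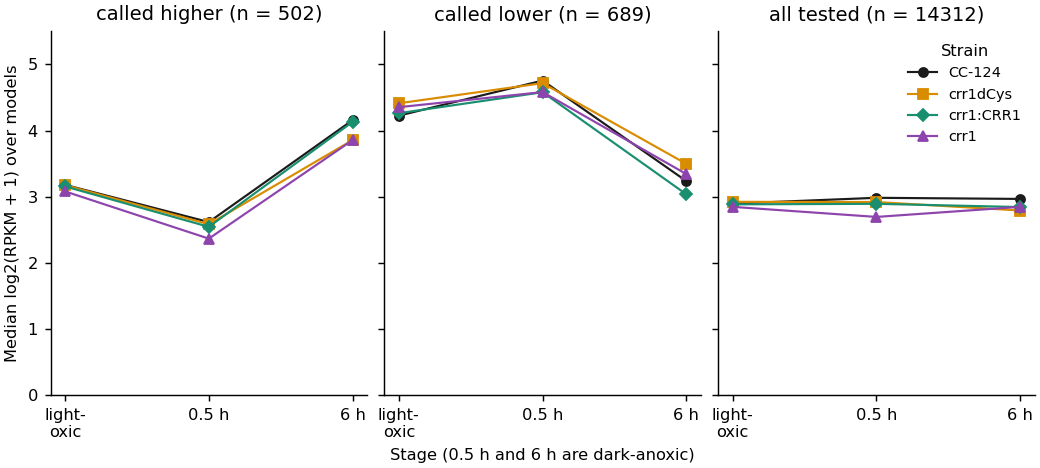
Median log2(RPKM + 1) over gene models (vertical axis) at the 3 stages (horizontal axis) in each strain, for the 502 models called higher, the 689 called lower and all 14312 tested. The risers dip from light to 0.5 h and end above the light level, the fallers do the opposite, and the median of all models stays between 2.69 and 2.98.

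The shares of the measured transcripts held by the called models moved with the calls, as their selection requires. The risers held 1.37% ± 0.144 of the summed RPKM at 0.5 h and 4.58% ± 1.45 at 6 h (SD, n = 4). The largest share at 6 h was 6.68% in CC-124, of which Cre17.g700950.t1.1 made up the gap to 5.25%. The fallers went from 14.2% ± 1.13 to 5.68% ± 0.902. Their share in the light was 14.3% ± 1.49, and that of the risers 1.90% ± 0.0690. The 100 most abundant models of each sample held 53.7% ± 2.98 at 0.5 h and 59.4% ± 4.91 at 6 h.

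By the level in the light, as a description without a test, the percent of models that fell was highest in the most abundant class. Of the 746 models with at least 100 RPKM in light-oxic culture, 14.1% fell and 3.89% rose between 0.5 h and 6 h. Of the 5028 models with 3 to 10 RPKM in the light, 3.16% fell and 3.28% rose. Among the 551 models that were below 1 RPKM in the light, 7.44% rose and 0.91% fell. There the filter on the dark mean selects models that were present in the dark. A model that was low at 0.5 h as well passes it only through its 6 h values, so part of this balance can be built in. A pseudocount of 1 shrinks fold changes of low models, so the same was computed by the mean dark level with limma-voom on the recovered reads. There, 13.7% of models of at least 100 RPKM fell and 4.67% rose, and 6.74% each fell and rose between 1 and 3 RPKM.

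Within that class the response differed by level. Of the 93 models with at least 2000 RPKM in the light, 72 had a log2 fold change above 0, with a median of 0.28. The medians of the strains were 0.14 in CC-124, 0.41 in crr1dCys, 0.34 in crr1:CRR1 and 0.22 in crr1. 35 of these models were higher and 20 lower at an adjusted p below 0.05, while 1 was called higher and 8 lower with the size threshold. After median of ratios scaling 72 were still above 0, with a median of 0.33. The 57 models between 1000 and 2000 RPKM had a median of -0.63 instead, and 17 of them were called lower. The classes were set after the values were seen. Models of at least 2000 RPKM were short, with a median length of 630 bases against 2294 over all models tested.

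Model length was recovered from the table itself, because values of a model fall on steps whose size depends on length and depth. The smallest whole length that gave whole reads was taken, so some lengths can be too short. The shortest recovered among models tested was 1 base, which cannot be a true length. Risers had a median length of 2308 bases and fallers of 1979. Models were divided into 3 classes of nearly equal number by length. In the short class, up to 1741 bases, 3.10% rose and 5.97% fell. In the long class, from 2971 bases, 3.15% rose and 2.98% fell. Among models of at least 10 RPKM the contrast lay in the rises as well, with 2.92% rising and 8.71% falling in the short class and 7.56% rising and 6.38% falling in the long class. The median response of the long class was above that of the short class in CC-124 (0.04 against -0.08), crr1:CRR1 (-0.04 against -0.14) and crr1 (0.17 against 0.00), and below it in crr1dCys (-0.22 against -0.07). Loss of RNA integrity can act on long and short transcripts differently, and its part in these values was not tested.

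**Figure D4:**
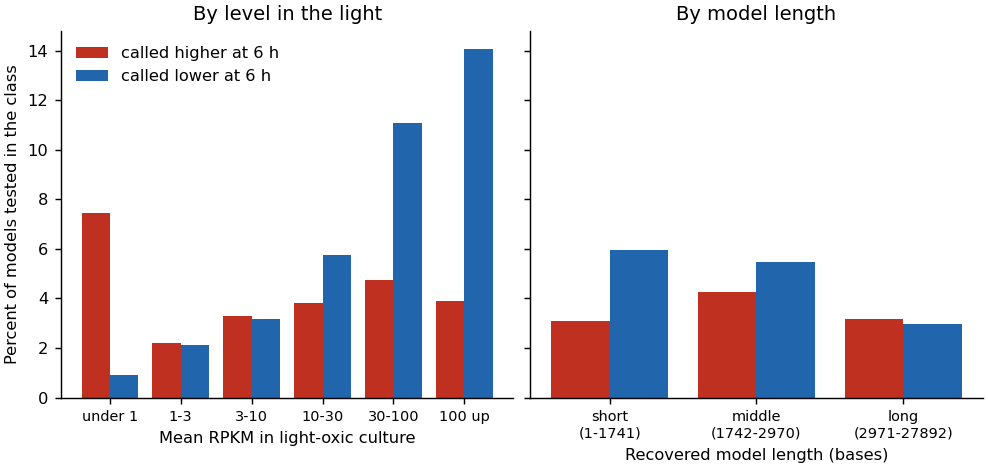
Percent of the models tested that were called higher (red) or lower (blue) at 6 h than at 0.5 h (vertical axis, from 0), by mean RPKM in light-oxic culture (left) and by 3 classes of recovered model length (right). The percent called lower climbs to 14.1% in models of at least 100 RPKM and drops to 2.98% in the long class.

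The size of the response differed between strains, as a description without a test. At least 1 log2 unit up or down was reached by 5.2% and 8.6% of the models in CC-124, 5.0% and 8.3% in crr1:CRR1, 3.0% and 4.8% in crr1dCys and 5.5% and 4.0% in crr1. The SD of the response over models was 0.77 in CC-124, 0.72 in crr1:CRR1, 0.62 in crr1 and 0.58 in crr1dCys. By this SD, CC-124 and crr1:CRR1 had the wider responses, while the percent of models up by at least 1 log2 unit was highest in crr1. With 1 sample per strain and time, CRR1 form, strain and library cannot be told apart. CC-124 and crr1:CRR1 rest on 1 column at 6 h each and crr1dCys and crr1 on 2, while at 0.5 h CC-124 and crr1 rest on 1. From single columns at both times, with no averaging, the SD was 0.77 in CC-124 (TS2), 0.72 in crr1:CRR1 (TS1, and 1.23 in TS4 with the left-out column), 0.62 and 0.58 in crr1dCys (TS1 and TS2) and 0.61 in crr1 (TS1). The median response of all models also differed, from -0.15 in crr1dCys to 0.11 in crr1, so the balance of ups and downs within a strain includes a shift of the whole library. Among the 502 risers the median response was 1.39 in CC-124, 1.45 in crr1:CRR1, 1.33 in crr1 and 1.13 in crr1dCys. Among the 689 fallers it was -1.40, -1.48, -1.10 and -1.19 in that order. The strains helped to choose these models, so these medians describe the calls only.

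178 models rose by at least 1 log2 unit in every strain and 226 fell by as much, which is 1.24% and 1.58% of those tested. For 2 log2 units the numbers were 24 and 8. In 48 models, at least 1 strain went up by at least 1 unit while another went down by at least 1. Across the 14312 models, responses of crr1, crr1:CRR1 and crr1dCys had Pearson's r between 0.742 and 0.791 with each other, and between 0.580 and 0.681 with CC-124. These are correlations across genes, which are not independent replicates. Both series of crr1dCys gave responses with r = 0.877 with each other.

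CC-124 was the strain with the most models that fell in it alone. 29 models fell there by at least 2 log2 units while each other strain stayed within 0.5 log2 units. No model (0) did so in crr1dCys or crr1, and 1 did in crr1:CRR1. By the same limits 4 models rose in CC-124 alone, 1 in crr1dCys alone and 0 in crr1:CRR1 or crr1 alone. Those of CC-124 were Cre06.g263200.t1.1, Cre08.g366350.t1.1, Cre12.g512850.t1.1 and Cre12.g553300.t1.1, of which the last 3 were listed at 0 in the other strains, and that of crr1dCys was Cre10.g436500.t1.1. The model that fell in crr1:CRR1 alone, Cre01.g062150.t1.1, was singled out by this count. It went from 31.7 RPKM to 0 in crr1:CRR1 and was listed at 0 at both dark times in the other strains. The 29 had a median of 35.6 RPKM in CC-124 at 0.5 h, 4.51 RPKM at 6 h and 5.34 RPKM in the light. The fall from 0.5 h to 6 h is how they were picked. A chance high in the single 0.5 h column of CC-124 would also place the light level below it, and this part was not tested. In 2 of the 29, all other strains were below 1 RPKM at both times, so for the other 27 the transcript was present in another strain. CC-124 had 1 column at each time, all of them TS2, so strain and single library cannot be told apart. The other strains share the crr1 background, and their responses were closer to each other than to CC-124. These limits are therefore met more easily in CC-124 than in another strain.

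**Figure D5:**
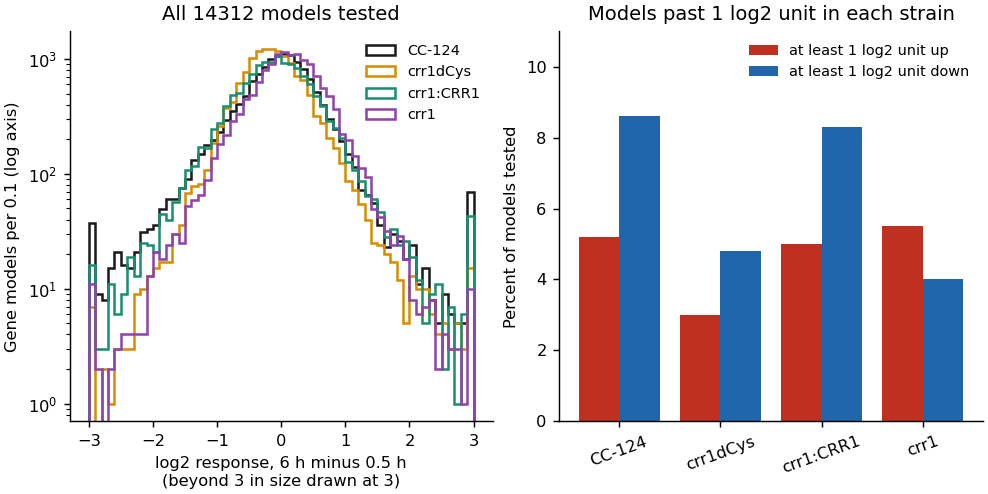
Left, the number of gene models (log axis) by log2 response between 0.5 h and 6 h in each strain, in steps of 0.1. Right, the percent of the 14312 models that moved by at least 1 log2 unit up or down in each strain, where falls reach 8.6% in CC-124 and 8.3% in crr1:CRR1 and 4.8% and 4.0% in crr1dCys and crr1.

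Called models were also looked at by their place among neighbours on the chromosome, as a description. Of the 14312 models, 10980 matched a locus of the RefSeq gene list by identifier, and adjacent loci were compared where both were tested. Of 523 fallers with such a neighbour, 91 (17.4%) lay next to another faller, against 7.57% of the 9483 models that were not called. Of 360 risers, 37 (10.3%) lay next to another riser, against 5.40% of the models not called. A faller lay next to a riser in 5.2% of cases. The log2 fold changes of adjacent models had r = 0.098 over 8497 pairs. Adjacent models can overlap or be copies of each other, in which case they may share reads, and the part of this was not tested.

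At 6 h, crr1:CRR1 had a TS4 column that stood apart from its TS1 column and was left out of all results above unless named. The SD of the difference between these columns was 1.08 log2 units, and 880 of 14312 models differed by at least 2. The other 4 pairs of dark columns had SDs of 0.268 to 0.364 and 15 to 31 such models. TS1 and TS4 of the same strain had an SD of 0.32 in the light. The TS4 column at 6 h took no part in choosing the models. Its own response against the TS4 column at 0.5 h, which did take part, was set beside the calls. A chance deviation in that 0.5 h column enters both the calls and this response, so part of the shares below can be built in. In TS4, 392 of the 502 risers (78.1%) went up and 646 of the 689 fallers (93.8%) went down, against 53.4% and 46.6% of all models tested. The median response was 1.24 log2 units in the risers and -1.70 in the fallers. In TS1 of the same strain, which was used for the calls, 501 risers went up and 686 fallers went down. With the TS4 column included, 480 models rose and 732 fell, of which 412 and 613 were also called without it.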

How the data were processed

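The authors deposited 1 table of values per gene model in 20 columns, which were read as RPKM from the values; no header names the unit. Bowtie is named per the submitters' processing notes; its version, the genome build, the annotation and the counting were not given in the sources used here. Depths were those at which low values gave whole model lengths (99.1% of 755 low models within 0.1 base). Whole reads followed for 16911 of 16912 models above 0, within 0.01, or within a wider margin that grew with the reads where these were many. The smallest length that gave whole reads was taken, so some lengths and reads can be too low. The reads summed to between 0.9997 and 1 times each depth. Those sums cover reads on models only, and PCR copies are not separate molecules.

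Column names were matched to the labels by strain abbreviation and time. The abbreviations with cC and r1 were read as crr1:CRR1 and crr1, the latter by elimination. For crr1:CRR1 at 6 h the rule of the comparison left the TS4 column out. Repeat columns of a sample were averaged as log2(RPKM + 1) and counted as 1 replicate; printed RPKM are arithmetic means. The test was limma 3.58.1 under R 4.3.3, with strain as a block taken from the labels. Moderated variances followed a trend with level, with 3 residual and 5.62 prior degrees of freedom. Benjamini-Hochberg adjustment was over all 14312 models. In simulated data for 6 h against 0.5 h with 14312 models, 50 were changed at each size and the noise was independent and normal. Of changes of 1, 2, 3 and 4 log2 units, 32%, 98%, 98% and 100% were recovered, with 1 false call. Changes of 1 lie at the size threshold, so many miss it whatever the precision. In the data 35.1% of models had a limma adjusted p below 0.05, far more than were changed in the simulation. Its rates therefore need not hold for the calls.

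The rule for named models took the largest rise and fall; the next largest of each were added after values were seen. Its other parts, and all planned gene lists, need product names, which neither the table nor the RefSeq list (12666 of 17301 models matched by locus tag) gives, so no list was counted. Comparison, rules and lists were chosen with earlier results of these data known.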

Additional observations from a re-analysis of the deposited data

Results flagged for a closer look

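In 29 sets of 4 strain values that were looked at, 1 strain stood far from the others in 6. Chance gives about 1 in 20 for normal values, RPKM need not be normal, and the stages of 1 model are not independent. CC-124 was apart for Cre17.g700950.t1.1 at all 3 stages, with RPKM of 31.9 (light), 11.2 (0.5 h) and 10497 (6 h). The remaining 3 sets had a single nonzero strain, so that the gap is the whole range by construction. Of these, Cre16.g661200.t1.1 in light-oxic crr1:CRR1 was at 0.0265 RPKM, which is 3 reads. Cre02.g087073.t1.1 in crr1 was at 0.0364 RPKM in light-oxic culture and 0.227 RPKM at 0.5 h, which are 1 and 3 reads.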

How the results depend on the processing

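The counts of 502 risers and 689 fallers changed by over 1.5 times in 4 settings. With a pseudocount of 0.1, 785 models rose, with a pseudocount of 5, 196 rose and 324 fell, with the TS2 columns alone 309 rose, and with limma-voom on recovered reads (chosen after seeing the data) 818 rose. That last setting shared 500 of the risers and 681 of the fallers. Leaving out each strain in turn gave 467 to 571 risers and 584 to 788 fallers, and the fit with no replicate block (without pairing by strain) gave 401 and 579. Fallers outnumbered risers in all settings but quantile normalization, which gave 565 risers and 552 fallers; median of ratios scaling gave 555 and 595. The largest fall, the next largest fall and Cre16.g661200.t1.1 kept direction and side of the threshold in all 19 alternative settings. Of 94 values of the 5 named models over all settings, 86 did so, and 8 lost the call, 2 for Cre17.g700950.t1.1 and 6 for Cre02.g087073.t1.1, whose limma adjusted p ranged from 0.000162 to 0.141 and from 0.00429 to 0.122; the cause was not tested. With only models of a mean of at least 5 RPKM tested, Cre02.g087073.t1.1 gave no value. The log2 fold change of Cre16.g661200.t1.1 was 3.23 with a pseudocount of 5, and that of Cre17.g700950.t1.1 was 9.63 by limma-voom. The planned gene lists were not run.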
